A study of Mus musculus with 2 samples.

Results

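The Mir148 and Mir152 family consists of the hairpin genes Mir148a, Mir148b and Mir152, which were chosen by symbol because their 3p arms share a seed. These are 3 of the 1973 miRNA genes counted in the data, and all 3 passed the limit for a detected gene, 10 or more counts per library. A miRNA represses messenger RNAs by pairing with them, mainly through its seed, the bases 2 to 8 from its 5′ end, so miRNAs with the same seed can act on overlapping targets. The family is best known for repression of the DNA methyltransferase Dnmt1, shown in human and mouse cells. Mir148a is also known as an abundant miRNA of liver, where in mice it acts on the LDL receptor.

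MicroRNA sequencing had been done on facial prominences, the swellings from which face and jaws develop, built of neural crest mesenchyme under an epithelium. They came from B6NCrl mouse embryos of both sexes at embryonic day 10.5. The samples form a single group with 2 biological replicates. Replicate 2 pooled 51 embryos and gave 3517226 counts on the strand of a miRNA gene, and replicate 1 pooled 69 embryos and gave 2853511. There is no second tissue, stage or treatment, so the comparisons are between genes of the tissue and between the pools. Levels are CPM, a gene's count scaled to the total of those counts, which sums both arms of a hairpin and is not divided by length. Small RNA libraries favour some sequences, so a difference between genes is a difference in reads. Intervals and exact tests reflect counting error alone, and PCR copies of a molecule are not independent.

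The mature sequences show what the members share and where they part. The 3p arms, with the seed in capitals, read 5′ to 3′ in RefSeq (build GRCm38.p6):
miR-148a-3p: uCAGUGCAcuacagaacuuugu
miR-148b-3p: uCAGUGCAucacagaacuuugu
miR-152-3p: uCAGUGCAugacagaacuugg
Counting from 1 at the 5′ end, miR-148b-3p differed from miR-148a-3p by C9U and U10C and was identical in 20 of 22 bases. The change from miR-148a-3p to miR-152-3p was C9U, U10G and U20G, with 18 of 21 bases identical. From miR-148b-3p to miR-152-3p there were 2 differences, C10G and U20G, and miR-152-3p is the shorter by 1 base. The 3p arms thus differ at bases 9, 10 and 20 and in length, and not in the seed. Of the 1738 mature mouse sequences in the table, these 3 (0.173%) were the ones with this seed.

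The 5p arms, which come from the opposite side of the same hairpins, do not share 1 seed. They are shown because the counts sum both arms, and bases 2 to 8 are in capitals:
miR-148a-5p: aAAGUUCUgagacacuccgacu
miR-148b-5p: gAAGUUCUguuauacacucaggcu
miR-152-5p: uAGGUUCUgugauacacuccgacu
The 5p arms of Mir148a and Mir148b have the same bases 2 to 8, which no other mature sequence in the table has. That of Mir152 differs from both within the seed (A3G), and no other listed sequence has its bases 2 to 8 either. Compared without gaps from the 5′ end, 13 of 22 bases were identical between miR-148a-5p and miR-148b-5p, 12 of 22 between miR-148a-5p and miR-152-5p, and 19 of 24 between miR-148b-5p and miR-152-5p. By this count the 5p arms were less alike than the 3p arms in each of the 3 pairs. A count without gaps depends on length, and miR-148a-5p is shorter than the others by 2 bases. The longest stretch shared by Mir148a and Mir152 was 11 bases in the 5p arms, against 9 in the 3p arms. For Mir148a and Mir148b it was 8 against 12, and for Mir148b and Mir152 8 against 9.

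The hairpins, with both annotated arms in capitals, show how far each arm lies from the ends and the loop:
Mir148a: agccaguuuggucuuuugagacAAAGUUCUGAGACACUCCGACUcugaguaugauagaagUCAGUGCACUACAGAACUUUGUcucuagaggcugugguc
Mir148b: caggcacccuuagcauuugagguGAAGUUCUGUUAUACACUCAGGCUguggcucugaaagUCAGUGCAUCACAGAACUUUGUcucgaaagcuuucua
Mir152: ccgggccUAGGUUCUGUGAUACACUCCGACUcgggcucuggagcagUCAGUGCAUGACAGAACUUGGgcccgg
Mir152 has the shortest annotated hairpin of the 3, 73 bases, against 97 for Mir148b and 99 for Mir148a. Its G and C content is 61.6%, and those of Mir148b and Mir148a are 45.4% and 45.5%. The minimum free energy that RNAfold predicted was -43.5 kcal/mol for Mir152, -30.9 kcal/mol for Mir148b and -41.0 kcal/mol for Mir148a, so the shortest hairpin had the lowest predicted energy. None of the 3 hairpins shares a stretch of 20 identical bases with another counted miRNA gene, which 83 of 376 detected genes do. Reads that map to several places are not in the counts, and this touches genes with such copies most.

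Mir148a was the highest member. It had 594.5 CPM in replicate 2 (2091 counts, exact 95% interval 569 to 621) and 534 CPM in replicate 1 (1524 counts, 508 to 562), a mean of 564 ± 42.7 CPM (SD, n = 2). Mir148b had 268 CPM in replicate 2 (944 counts, 252 to 286) and 299.98 CPM in replicate 1 (856 counts, 280.2 to 321), a mean of 284 ± 22.3 CPM (SD, n = 2). Mir152 was the lowest, with 76.8 CPM in replicate 2 (270 counts, 67.9 to 86.5) and 97.8 CPM in replicate 1 (279 counts, 86.6 to 109.9), a mean of 87.3 ± 14.9 CPM (SD, n = 2). The order Mir148a, Mir148b, Mir152 was the same in both libraries, with no overlap between members. In bulk tissue, few cells with much of a miRNA and many cells with little cannot be told apart.

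**Figure D1:**
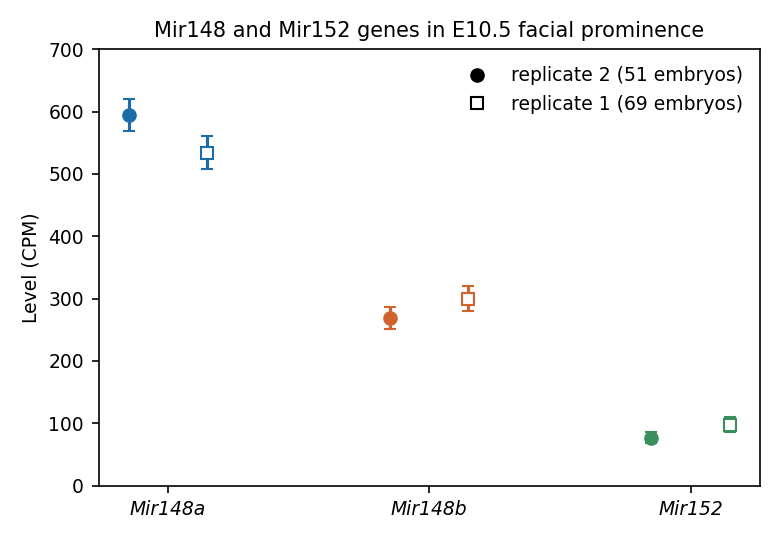
Level in CPM of each member in replicate 2 (filled circles) and replicate 1 (open squares), with exact 95% intervals for counting error. Mir148a lies at 594.5 and 534 CPM, above Mir148b at 268 and 299.98 CPM, and Mir152 at 76.8 and 97.8 CPM is the lowest in both libraries.

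Each gap between members exceeded the shift of either member from library to library. Mir148a had 2.22 times the CPM of Mir148b in replicate 2 (exact 95% interval 2.05 to 2.39) and 1.78 times in replicate 1 (1.64 to 1.94). It had 7.74 times that of Mir152 in replicate 2 (6.82 to 8.82) and 5.46 times in replicate 1 (4.80 to 6.23). Mir148b had 3.50 times that of Mir152 in replicate 2 (3.05 to 4.02) and 3.07 times in replicate 1 (2.68 to 3.52). The larger ratio between libraries was 1.12 for Mir148a and Mir148b and 1.27 for each pair with Mir152, so all 3 pairs were separated by more than it. These intervals cover counting error within a library, and a permutation test between members over 2 libraries cannot reach 0.05.

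Summed, the family was at nearly the same level in both pools. It had 939.7 CPM in replicate 2 and 932 CPM in replicate 1, or 936 ± 5.53 CPM (SD, n = 2). That is 0.0940% of gene counts in replicate 2 (exact 95% interval 0.0908% to 0.0972%) and 0.0932% in replicate 1 (0.0897% to 0.0968%). Mir148a made up 63.3% of the family's counts in replicate 2 (61.6% to 64.9%) and 57.3% in replicate 1 (55.4% to 59.2%). Mir148b made up 28.6% in replicate 2 (27.0% to 30.1%) and 32.2% in replicate 1 (30.4% to 34.0%). Mir152 made up 8.17% in replicate 2 (7.26% to 9.16%) and 10.5% in replicate 1 (9.35% to 11.7%). Mir148a held more than the other members together in both libraries. The intervals of each member's share did not overlap between the libraries, but they cover counting error only, and differences beyond counting error were common between these libraries. An exact binomial test called 181 of 449 genes (40.3%), 90 higher and 91 lower in replicate 2.

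**Figure D2:**
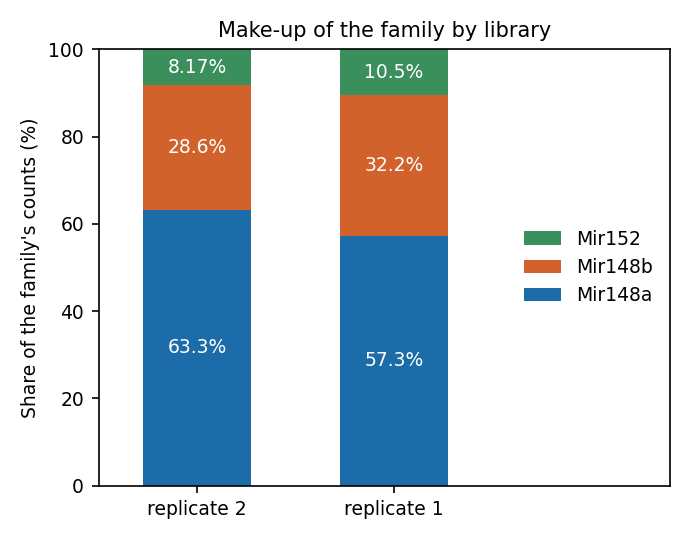
Share of the family's counts (%) held by each member, in replicate 2 (left) and replicate 1 (right). Mir148a takes 63.3% in replicate 2 and 57.3% in replicate 1, and Mir152 takes 8.17% and 10.5%.

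Between the pools, the members differed by small amounts and in different directions. Mir148a was higher in replicate 2, with a log2 ratio to replicate 1 of 0.15 (exact 95% interval 0.06 to 0.25, adjusted p = 0.00462, exact binomial test with Benjamini-Hochberg adjustment over 449 genes). Mir148b was lower in replicate 2, with a log2 ratio of -0.16 (-0.30 to -0.03, adjusted p = 0.0478 by the same exact test). Mir152 was also lower, with a log2 ratio of -0.35 (-0.60 to -0.10, adjusted p = 0.0136 by the same exact test). The family sum had a log2 ratio of 0.01 (-0.06 to 0.09). Some markers of cell types also differed between the pools. The same exact test called 40.3% of all genes tested. When limited to genes that averaged 10 CPM or more, as all epithelial and mesenchymal markers did, it called 176 of 320. By it, 6 of 7 epithelial markers and 3 of 5 mesenchymal markers were lower in replicate 2 and none was higher. Their medians of the log2 ratio were -0.27 and -0.20. Mir126a, an endothelial miRNA, was higher in replicate 2 (log2 ratio 0.12). Of the 3 erythroid markers, Mir451a was lower in replicate 2 (log2 ratio -1.32), and Mir144 (-0.16) and Mir486 (0.32) were not called. Of the 4 pancreatic markers, 2 were higher in replicate 2 and none was lower. None of the 3 leukocyte or 3 liver and gut markers tested was called. Mir206, the 1 muscle marker tested, was lower in replicate 2 (log2 ratio -1.28, with 37 counts against 75 in replicate 1). The part of these markers in the members' differences was not tested.

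These differences are within what the genes of the 2 libraries showed at large. The exact binomial test, with its 40.3% of genes called, compares the 2 libraries beyond counting error, not conditions. The members' median log2 ratio was -0.16, and that of all 449 tested genes was 0.01. Of the 320 genes that averaged 10 CPM or more, 57.8% had a larger absolute log2 ratio than Mir148a, 54.7% than Mir148b and 26.9% than Mir152. These shares were not matched for level, and ratios of genes with fewer counts carry more counting error. Among the genes next to Mir148a in rank, Mir501 (0.26) and Mir200a (-0.58) had larger absolute ratios. Mir340 (0.06) and Mir320 (0.04) had smaller ones. When the spread between libraries was added to counting error (edgeR exact test with a common dispersion), all 3 members had an adjusted p of 1, with unadjusted p of 0.676, 0.669 and 0.370 for Mir148a, Mir148b and Mir152. That dispersion was estimated from the same 2 libraries, and the test called 1 gene of 449, Mir219a-2, named after its value was seen, and 21 at an unadjusted p under 0.05. The call of Mir148b was also lost when no minimum count was set (adjusted p = 0.0780, exact binomial test).

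**Figure D3:**
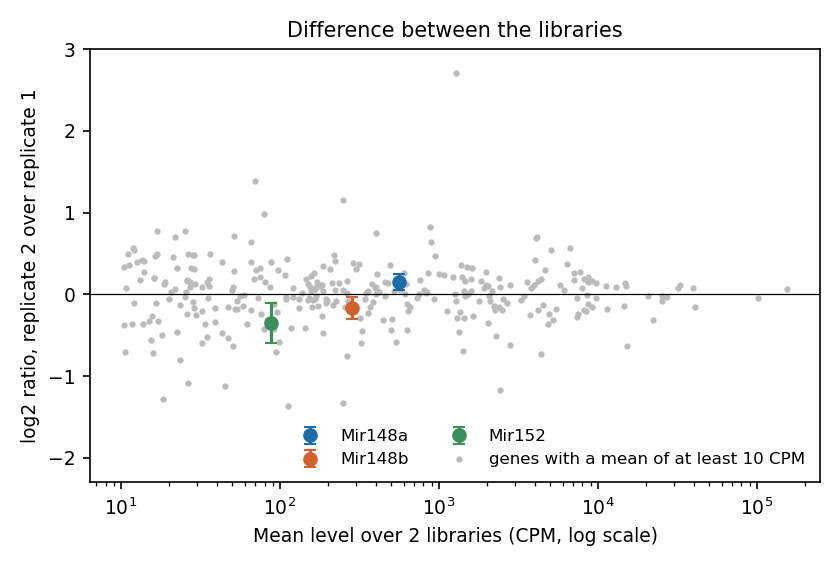
The log2 ratio of replicate 2 over replicate 1 against mean level (CPM, log scale) for genes that averaged 10 CPM or more (grey) and the members (coloured, bars are exact 95% intervals). Mir148a lies at 0.15, Mir148b at -0.16 and Mir152 at -0.35, inside the cloud of other genes.

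Among all miRNA genes of the facial prominences the members were of middle to upper level. By mean CPM, Mir148a ranked 125 of 1973 genes, Mir148b 155 and Mir152 218. Of the 376 detected genes, which have at least 10 counts in each library and a median of 164 CPM, 66.8% were lower than Mir148a, 58.8% lower than Mir148b and 42.0% lower than Mir152. The genes next above and below them in rank could not be separated from them, which their choice by nearness in mean CPM makes likely. For Mir148a these were Mir501 and Mir340 above (607 ± 78.5 and 569 ± 16.3 CPM) and Mir200a and Mir320 below (534 ± 150.3 and 520.2 ± 10.6 CPM). For Mir148b they were Mir5099 and Mir330 above (288 ± 54.1 and 287 ± 20.7 CPM) and Mir6236 and Mir3071 below (278 ± 21.2 and 269 ± 10.1 CPM). For Mir152 they were Mir190a and Mir33 above (91.3 ± 19.0 and 87.3 ± 16.9 CPM) and Mir19b-1 and Mir6944 below (86.2 ± 3.95 and 82.6 ± 12.6 CPM). All these are mean ± SD, n = 2, and in none of the 12 pairs was the gap larger than the ratio between the libraries in both libraries.

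The genes most like each member in level and in ratio between the libraries were found over 2 libraries by the distance in log2 mean CPM and log2 ratio. They were Mir340 (distance 0.0970), Mir676 (0.134) and Mir501 (0.153) for Mir148a. For Mir148b they were Mir330 (0.0183), Mir6236 (0.0306) and Mir3071 (0.115), and for Mir152 Mir6944 (0.0879), Mir190a (0.102) and Mir452 (0.158).

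**Figure D4:**
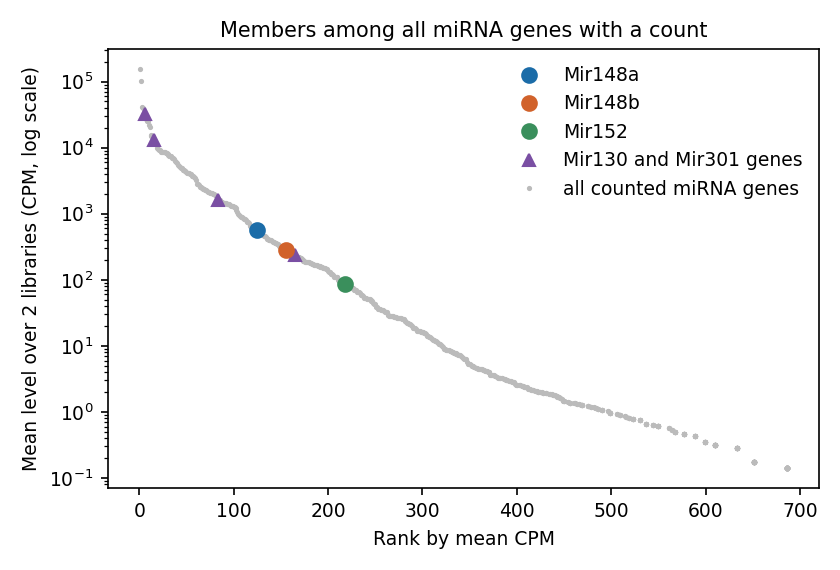
Mean level over 2 libraries (CPM, log scale) of each miRNA gene with a count, against its rank. Mir148a (rank 125), Mir148b (rank 155) and Mir152 (rank 218) lie below the highest Mir130 and Mir301 genes (triangles), which rank 6 and 16.

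The same letters as the seed also open the 3p arms of the Mir130 and Mir301 family, 1 base nearer the 5′ end. The shared bases are in capitals:
miR-130a-3p: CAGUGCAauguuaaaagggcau
miR-130b-3p: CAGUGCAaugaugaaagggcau
miR-301a-3p: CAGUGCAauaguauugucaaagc
In 7 mature sequences of 1738 (0.403%) they stand at bases 1 to 7, and in the 3 members at bases 2 to 8. The seeds of the families thus overlap but are not the same. These 7 are not the same set as the listed family, as they hold no sequence of Mir301b and include genes outside the list. Summed, the Mir130 and Mir301 genes were far above the family in reads, but this did not hold for each of them. Mir301b, with 245 CPM in replicate 2 and 222 CPM in replicate 1, was below Mir148a. It was also below Mir148b (268 and 299.98 CPM), but in replicate 2 that gap was smaller than the shift of Mir148b between libraries. Mir130a had 32764 CPM in replicate 2 and 31010.2 CPM in replicate 1, Mir130b had 13420.0 and 12637 CPM, and Mir301, the gene of miR-301a, had 1483 and 1778 CPM. The 5 of 6 listed genes with a row had a sum of 47912 CPM in replicate 2, against 45648 CPM in replicate 1, a mean 49.99 times that of the Mir148 and Mir152 family. Of these, 4 were detected and 1, Mir130c, had no count (upper limit 0.853 CPM in replicate 2 and 1.05 CPM in replicate 1, from 3 counts). Of the 4 detected, 2 were higher and 1 lower in replicate 2 by the exact binomial test, which called 40.3% of all genes tested.

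For comparison, in small families whose members lie in introns of paralogous host genes, a single gene held most of the counted reads. Mir148b and Mir152 lie in such introns, and Mir148a does not. The Mir103 and Mir107 genes, in introns of the pantothenate kinase genes, had a sum of 1287 CPM in replicate 2, against 1550.4 CPM in replicate 1, and Mir107 held 1162 and 1423 CPM of that. The Mir26 genes, in introns of the Ctdsp phosphatase genes, had a sum of 26781 CPM in replicate 2, against 27367 CPM in replicate 1, nearly all of it from Mir26b (26739 and 27327 CPM). The comparison is limited. All 3 genes of the Mir103 and Mir107 family, and Mir26a-1 and Mir26a-2, hold a 20-base stretch that recurs in another miRNA gene. Mir26b and the members of the Mir148 and Mir152 family hold none. Reads that map to several places are not in the counts, so reads of the genes with such a stretch may be missing. How far a single gene dominates these comparison families therefore cannot be told from the counts.

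The members lie alone, on 3 chromosomes. Mir148a (ENSMUSG00000065505.1) is on chromosome 6 at 51269812 to 51269910, minus strand, in the mm10 build, and overlaps no annotated gene. Its nearest gene is the long non-coding Gm32479, 13.6 kb away. Mir148b (ENSMUSG00000065560.1) is on chromosome 15 at 103285125 to 103285221, plus strand, in intron 1 of Copz1. Mir152 (ENSMUSG00000065515.1) is on chromosome 11 at 96850393 to 96850465, plus strand, in intron 1 of Copz2, 523 bases from the start of that gene, against 12411 bases for Mir148b in Copz1. Copz1 and Copz2 encode alternative zeta subunits of the COPI coat, which carries vesicles from the Golgi to the endoplasmic reticulum. A position inside a coding gene on the same strand is common, with 854 of 1894 counted miRNA genes (45.1%). The nearest counted miRNA gene on the same strand was 960 kb from Mir148a, 270.1 kb from Mir148b and 213 kb from Mir152, so no member belongs to a cluster.

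Each member lies downstream of a gene of the Nfe2 group and a Cbx gene. Upstream of Mir148a, by its own strand, are Nfe2l3 at 163 kb, Hnrnpa2b1 at 191 kb, Cbx3 at 200.4 kb and Snx10 at 254 kb. Upstream of Mir148b are Nfe2 at 26.7 kb, Hnrnpa1 at 38.4 kb and Cbx5 at 45.3 kb. Upstream of Mir152 are Nfe2l1 at 20.4 kb, Cbx1 at 41.8 kb and Snx11 at 72.8 kb. The Nfe2 genes encode leucine zipper transcription factors and the Cbx genes named here the heterochromatin proteins HP1. In all 3 loci the Nfe2 gene is the nearest coding gene on that side, apart from the host, and the Cbx gene lies beyond it. This arrangement was noticed after the data had been examined.

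**Figure D5:**
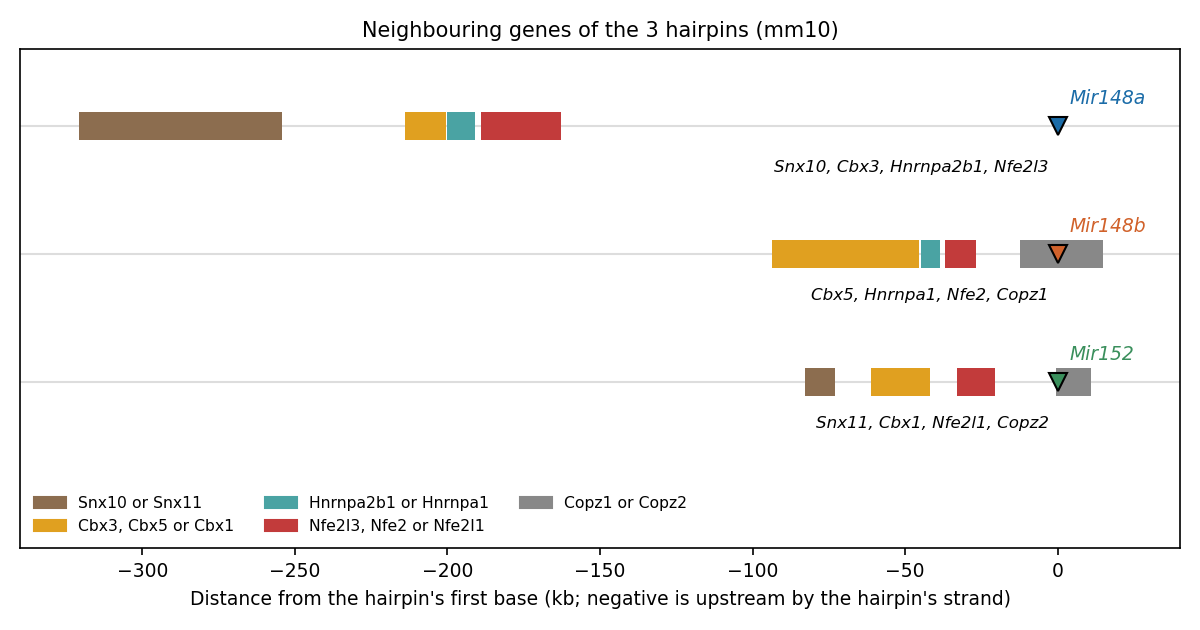
Genes upstream of each hairpin (triangles at 0), by distance in kb along the hairpin's strand. In each locus the Nfe2 gene (red) is nearer than the Cbx gene (yellow), at 163 kb against 200.4 kb for Mir148a, 26.7 kb against 45.3 kb for Mir148b and 20.4 kb against 41.8 kb for Mir152.

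The libraries carried the markers of the labelled tissue. Summed levels were 19066 CPM in replicate 2 and 21520 CPM in replicate 1 for the 5 mesenchymal markers, and 23965 and 28691 CPM for the 7 epithelial markers, with all 12 detected. The endothelial Mir126a had 34369 and 31642 CPM. Markers of other cell types had lower sums. The 5 liver and gut markers had a sum of 151 CPM in replicate 2, against 158 CPM in replicate 1, and the liver marker Mir122 had 15.4 and 12.6 CPM. The 3 leukocyte markers with a row summed to 422 and 433 CPM, the 3 erythroid markers to 205 and 419.8 CPM, and the 4 pancreatic markers to 1699 and 1445 CPM, of which Mir375 held 1489 and 1289 CPM. The 4 muscle markers with a row summed to 10.8 and 26.3 CPM, and Mir133a-1 and Mir133a-2 had no count. Mir1a-1, Mir133a-1 and Mir133a-2 hold a 20-base stretch that recurs in another miRNA gene, as do the mesenchymal Mir199a-1, Mir199a-2 and Mir199b and the gut markers Mir194-1 and Mir194-2, so their counts are uncertain. The part of these cell types in the members' levels was not tested.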

How the data were processed

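Per the text files deposited with the tables, the authors aligned the reads of each library to mm10 and counted them over GENCODE M4. Which aligner was used, and how, was not given in the sources used here. Deposited values are raw counts per miRNA gene, and the column of counts on the gene's strand was used. The 4 summary lines (reads unmapped, mapped to several places or outside genes) were left out of totals and held 59.3% of reads in replicate 2 and 58.2% in replicate 1. Symbols and coordinates came from GENCODE M21 (GRCm38), which matched 1894 of 1973 identifiers, while none of the remaining 79 had more than 3 counts. Sequences came from RefSeq (GRCm38.p6), where all 3 members matched. Arms cannot be separated in these counts.

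CPM used the total over all genes. In log2 ratios a pseudocount of 0.5 CPM was added to both libraries. Genes with at least 10 counts over both libraries were compared between the libraries by an exact binomial test (two-sided; null share set by the totals), with Benjamini-Hochberg adjustment and a threshold of 0.05. Intervals of levels, shares and ratios were exact Clopper-Pearson intervals at 95%. Members were called separated where the ratio between them was above the larger ratio between libraries, in both libraries. The test was checked on simulated data with counting error only, so the check does not cover the spread between libraries. Tools were SciPy 1.17.1, edgeR 4.0.16, DESeq2 1.42.0 (size factors only) and RNAfold 2.7.2. The genes named are the members, their neighbours in rank (2 above, 2 below), the 3 most alike, and the genes of fixed lists. The members and lists were chosen with earlier results of these data known. Mir721, Mir142 and Mir1a-2 had no matched row. Other genes near the members are not reported here.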

Additional observations from a re-analysis of the deposited data

How the results depend on the processing

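Leaving out 1 replicate gave mean levels of 534 to 594.5 CPM for Mir148a, 268 to 299.98 CPM for Mir148b, 76.8 to 97.8 CPM for Mir152 and 932 to 939.7 CPM for the family. The CPM scale depends on the total. With the 10 highest genes left out of it, Mir148a had 1131 CPM, Mir148b 569 CPM, Mir152 175 CPM and the family 1875 CPM. With all reads as the total they had 233, 117, 36.0 and 386 CPM, and with the unstranded count the family had 913 CPM. Among genes that share no 20-base stretch with another, Mir148a ranked 105, Mir148b 129 and Mir152 178. The ratios between libraries kept their sign under TMM, DESeq2 size factors, other totals and the unstranded count. Other minimum counts leave a ratio as it is, and dropping the pseudocount cannot change its sign. Over all these settings and the main one (8 each), the ratios ran from 0.13 to 0.15 for Mir148a. They ran from -0.19 to -0.16 for Mir148b and -0.37 to -0.34 for Mir152. The adjusted p ranged from 0.00337 to 0.0254, 0.0171 to 0.0780 and 0.00689 to 0.0225. With no minimum count the ratio of Mir148b, -0.16, no longer passed, where 741 genes were tested. With the common dispersion of edgeR none passed, at ratios of 0.15, -0.16 and -0.35, and the number of genes called was 1, against 181. No paired analysis was possible because there is 1 group. Depth limits Mir152 most, at 270 and 279 counts.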

Other observations

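Outside the family, the mature sequence with the longest stretch in common with a member's 3p arm was miR-33-3p, which holds bases 2 to 12 of miR-148b-3p, 11 bases, at its 3′ end (capitals).
miR-33-3p: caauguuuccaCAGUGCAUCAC
Its gene, Mir33, which lies in the sterol regulator gene Srebf2 and is known for control of cholesterol export, had 99.2 CPM in replicate 2 and 75.3 CPM in replicate 1, next to Mir152 in rank. The members had almost no reads on the opposite strand, with 2 at Mir152 in replicate 2 and 0 at the others and in replicate 1, at or below the limit of 3 counts.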
